A study of Homo sapiens with 16 samples.

Results

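The genes described here encode hnRNP proteins and core proteins of the spliceosome in U2OS cells, a human osteosarcoma line. They were chosen by symbol and level: every gene of the expression matrix whose symbol starts with HNRNP, SNRP, SF3A, SF3B, PRPF or LSM, without hyphenated symbols and pseudogenes, and with a mean of at least 1 FPKM (fragments scaled to transcript length and library size) over all 16 libraries. This gave 66 of 79 genes with such symbols, out of 10600 genes that reached the same mean and 25270 in the matrix. They comprised 21 hnRNP genes, 7 genes of the Sm core, 4 of proteins specific to the U1 or U2 snRNP, 9 SF3A and SF3B genes, 13 PRPF genes, 11 LSM genes and LSMEM2, whose symbol starts with LSM although it is not an Sm-like protein. Of the 13 genes left out, 5 were pseudogenes, 2 had a hyphen and 6 were below the level. Just inside the limit were LSMEM2 at a mean of 1.13 FPKM, LSM11 at 1.44 and HNRNPA1L2 at 1.62. Just outside were LSM8 at 0.519, LSMEM1 at 0.387 and HNRNPCL1 at 0.0562. LSM2 was listed at 0 in all 16 libraries, and SNRPN, the near-identical copy of SNRPB, at a mean of 0.00712 FPKM.

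Cells were treated for 6 h with the solvent DMSO, with T4 or T5, which the series calls modulators of alternative polyadenylation (APA), or with CPT, which the labels do not spell out. The doses of CPT, T4 and T5 were 0.5, 2, 5, 10 and 20 µM. Each treatment was sequenced as 1 library, for which the labels give total RNA as the molecule and the sample titles say mRNA, and a single DMSO library served all 3 compounds. There were no replicates, so every test below measures the scatter of single libraries around a dose line or between compounds at the same dose. The CPT, T4 and T5 dose trends all lean on the same DMSO library and are therefore given side by side without a count of what they share.

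The spliceosome removes introns from pre-mRNA. It is built from small nuclear RNAs that each carry a ring of Sm or Sm-like (LSM) proteins and their own specific proteins. U1 marks the 5′ splice site, U2 with SF3A and SF3B binds the branch site, and the tri-snRNP of U4, U6 and U5, which holds several PRPF proteins, completes the machine. The hnRNP proteins coat nascent RNA and help decide which splice sites and polyadenylation sites are used. A separate small RNA, U7, carries LSM10 and LSM11 in place of part of the Sm ring and serves the 3′ end processing of histone mRNA, which is not polyadenylated.

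The FPKM values summed to between 238669 and 285143 per library, and sequencing depth, estimated from the steps between low values, ranged from 0.639 to 0.997 times that of DMSO. Of 8 bone markers, 4 reached 1 FPKM in DMSO, led by COL1A1 at 301 FPKM and SPARC at 227, while COL1A2, BGLAP, SP7 and IBSP were near 0. The bone marker sum ran from 533 FPKM in DMSO, the lowest library, to 1008. The epithelial markers summed to at most 4.79 FPKM and the blood markers to at most 0.480. Since these are whole-culture libraries, fewer cells of a type and less RNA per cell cannot be told apart. The median log2(FPKM + 1) of the 10600 genes was lower than in DMSO in all 15 treated libraries, by up to 0.41 with CPT, 0.57 with T4 and 0.63 with T5. The part of this shift in the results was not tested apart from the alternative scalings, and it is why the counts over all 66 genes are given also with every library centred on its median and after quantile normalization, which forces the same distribution on every library.

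The dose trends were read as the fitted change of log2(FPKM + 1) from 0 to 20 µM, and a gene was called at a limma adjusted p under 0.05 over all 10600 genes. With CPT, 15 of the 66 genes were higher and 10 lower, beside 17.9% higher and 25.8% lower of all genes tested. With T4, 15 were higher and 15 lower, beside 14.5% and 32.4%. With T5, 18 were higher and 20 lower, beside 18.2% and 34.5%. The median fitted change of the 66 genes was 0.14 with CPT, 0.02 with T4 and 0.11 with T5, and that of all genes tested was −0.14, −0.27 and −0.29. The split moved with the scaling. With median centring it was 31 higher and 8 lower for CPT, 38 and 6 for T4, and 38 and 7 for T5. After quantile normalization it was 6 and 12 for CPT, 8 and 13 for T4, and 7 and 17 for T5. Here and below, shares over all genes are given on the deposited scale only. The counts under the other scalings are therefore not read as a trait of the set. The genes called the same way under all 3 scalings numbered 5 of 15 higher and 8 of 10 lower with CPT, 4 of 15 and 6 of 15 with T4, and 5 of 18 and 7 of 20 with T5.

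These counts moved when 1 dose was left out. Such a fit also has fewer libraries, and the part of this in the lost calls was not tested. Without the 10 µM CPT library 0 genes were called in either direction with CPT by limma, although 13 higher and 9 lower had an unadjusted p under 0.05 and the smallest adjusted p was 0.0537. Without the 0.5 µM CPT library 4 genes were called higher, and without the 5 µM library 6. With T4, 2 genes were called higher without the 0.5 µM library, 6 without 10 µM and 8 without 5 µM. With T5, 5 were called higher and 11 lower without the 10 µM library, and 9 and 13 without 0.5 µM. All CPT calls named below are subject to the loss without the 10 µM CPT library. Of the 8 largest falls with T4 and the 8 largest with T5, all but PRPF39 with T5 were called whichever dose was left out. The rises were less stable: SNRPD2 and LSM7 kept their calls with T4 and T5 whichever dose was left out, while many others lost theirs, as did SF3A2 among the falls.

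**Figure D1:**
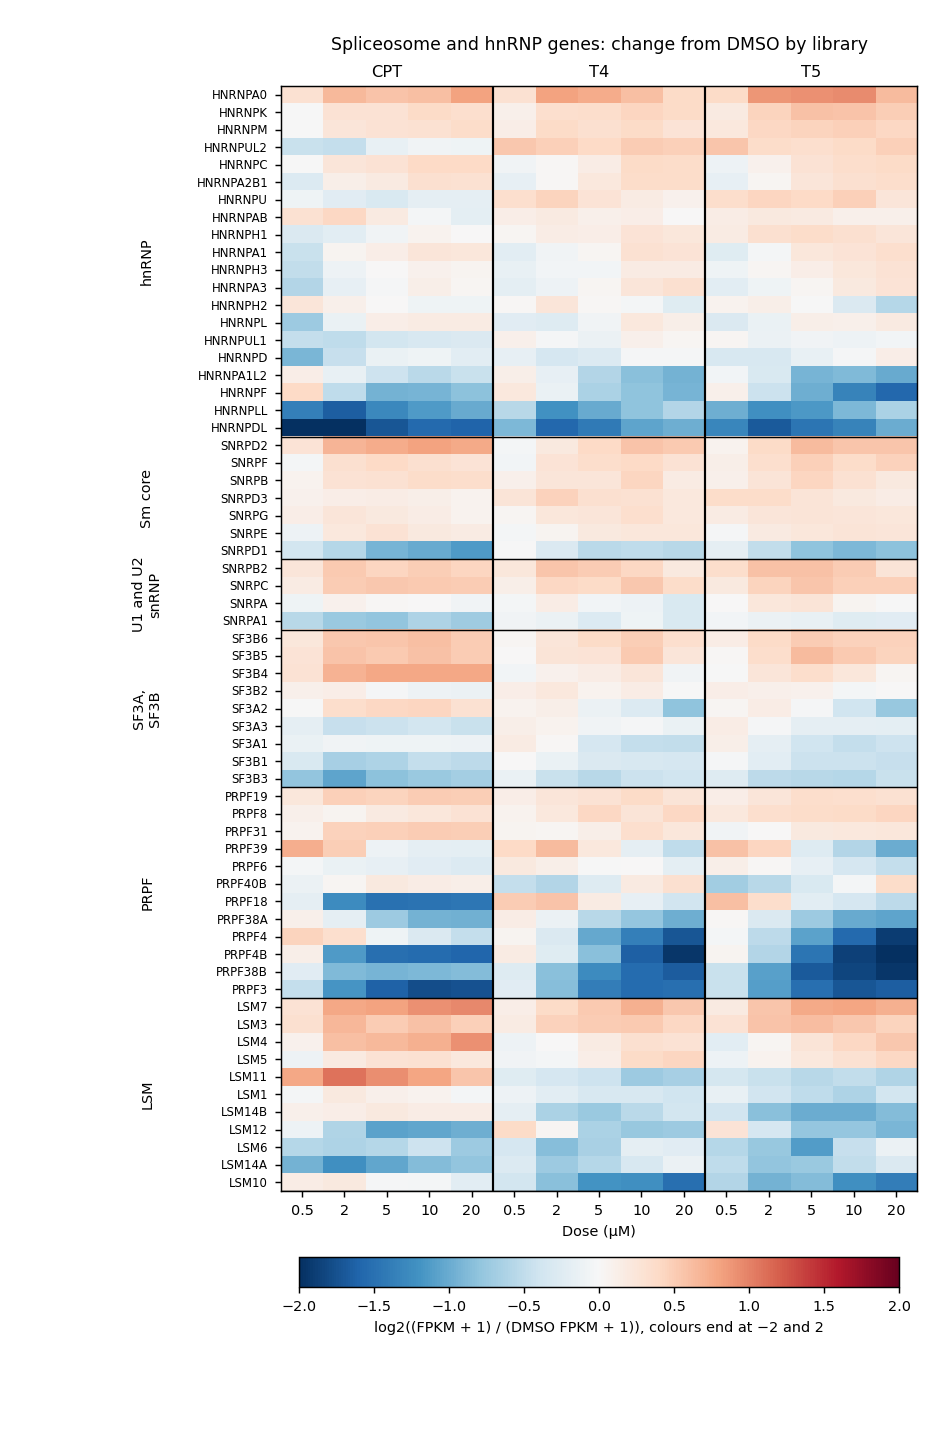
Each cell is log2((FPKM + 1) / (DMSO FPKM + 1)) of 1 gene in 1 library, with the doses of CPT, T4 and T5 from 0.5 to 20 µM from left to right and genes grouped by family and ordered by their mean change; HNRNPR, LSMEM2 and 1 gene not reported here are left out, and colours end at −2 and 2. Blue rows sit at the foot of the PRPF block (PRPF4B, PRPF38B, PRPF3) in all 3 panels, while LSM10 and PRPF4 are blue mainly with T4 and T5, PRPF18 with CPT, and LSM11 is red only in the CPT panel.

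The promoters of 3 genes are shown because PRPF4B had the largest called fall, and LSM7 and SNRPD2 are an LSM and an Sm gene whose rises were called under all 3 compounds and all 3 scalings. They were picked after the values were seen. Each covers 250 bases before to 50 after the RefSeq start in GRCh38.p14, written 5′ to 3′ on the gene's strand. Capitals mark matches, on either strand, to the TATA box TATAAA, the NRF1 motif GCGCATGCG and the YY1 motif AAGATGGCG; the ETS core CCGGAAGT was also searched and is in none of the 3. PRPF4B (RefSeq symbol PRP4K) lies at chr6:4021050-4021349 on the plus strand, and its TATA match is on the opposite strand. LSM7 lies at chr19:2328537-2328836 on the minus strand. An NRF1 match on the opposite strand lies there just before a separate stretch in which NRF1 matches on both strands overlap. SNRPD2 lies at chr19:45692267-45692566 on the minus strand and holds none of the motifs.
PRPF4B: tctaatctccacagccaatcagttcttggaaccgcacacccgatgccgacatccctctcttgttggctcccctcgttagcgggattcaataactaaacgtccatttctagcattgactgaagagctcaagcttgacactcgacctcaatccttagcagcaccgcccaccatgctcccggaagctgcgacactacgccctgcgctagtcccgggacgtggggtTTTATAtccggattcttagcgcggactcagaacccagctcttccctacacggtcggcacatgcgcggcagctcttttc
LSM7: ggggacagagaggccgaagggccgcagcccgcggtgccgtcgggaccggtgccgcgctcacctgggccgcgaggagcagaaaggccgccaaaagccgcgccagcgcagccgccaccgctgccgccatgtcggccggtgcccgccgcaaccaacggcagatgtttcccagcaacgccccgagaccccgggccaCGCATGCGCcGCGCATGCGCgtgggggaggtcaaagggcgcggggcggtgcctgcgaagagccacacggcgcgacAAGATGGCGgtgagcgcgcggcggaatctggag
SNRPD2: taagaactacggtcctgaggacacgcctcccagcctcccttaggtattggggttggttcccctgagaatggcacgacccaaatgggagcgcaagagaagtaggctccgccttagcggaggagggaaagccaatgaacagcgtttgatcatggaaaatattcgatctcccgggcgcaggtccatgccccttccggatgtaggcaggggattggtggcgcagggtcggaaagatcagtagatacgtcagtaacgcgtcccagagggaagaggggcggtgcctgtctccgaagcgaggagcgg
Over the 57 genes described here with a RefSeq promoter in the table used, the ETS core was in 12 (21.1%), against 9.88% of the 7977 tested genes with one. The TATA box was in 5 (8.77% against 5.06%), the YY1 motif in 4 (7.02% against 4.60%) and the NRF1 motif in LSM7 only (1.75% against 3.91%). The genes with the ETS core were SNRPB, SNRPE, SNRPA1, SF3A1, SF3A2, SF3A3, SF3B2, SF3B4, SF3B6, HNRNPD, LSM5 and PRPF6. They include genes called in either direction over dose, such as SF3B4 (higher with CPT) and SF3A2 (lower with T4 and T5).

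HNRNPK, a KH-domain protein of transcription and RNA processing, had the highest DMSO level of all members at 232 FPKM, followed among the hnRNP genes by HNRNPA2B1 at 202 and HNRNPA1 at 157. Of the 21 hnRNP genes, 5 were called higher and 2 lower with CPT, 5 and 2 with T4, and 6 and 3 with T5. Shares over all genes tested were 17.9% and 25.8% with CPT, 14.5% and 32.4% with T4, and 18.2% and 34.5% with T5. Without HNRNPR, which is described last, the hnRNP median fitted changes were 0.22, 0.25 and 0.25. These medians turned to −0.16, −0.07 and −0.10 after quantile normalization. The hnRNP splits were 10 and 1, 15 and 1, and 15 and 1 with median centring, and 0 and 3, 1 and 2, and 0 and 4 after quantile normalization (limma). HNRNPK ranged from 230 to 303 FPKM over the CPT doses, from 249 to 313 with T4 and from 263 to 347 with T5. Its fitted rise was 0.41 ± 0.11 (SE), 0.41 ± 0.10 and 0.54 ± 0.14, called each time (limma adjusted p = 0.0292, 0.0162 and 0.0191), but with the sign turned after quantile normalization. HNRNPC, which binds uridine tracts, likewise rose by 0.46 ± 0.10, 0.46 ± 0.11 and 0.50 ± 0.11, with values of 0.04, 0.13 and 0.07 after quantile normalization. HNRNPA2B1 rose by 0.51 with T4 and 0.48 with T5, and HNRNPA1 by 0.49 with T5, without a call after quantile normalization. HNRNPA0 stood at 50.4 FPKM in DMSO and at 62.6, 79.1, 74.9, 77.03 and 88.6 over the CPT doses. It rose by 0.68 ± 0.15 with CPT (adjusted p = 0.0171), not called after quantile normalization, while the T4 and T5 values of 0.41 ± 0.28 and 0.71 ± 0.28 were not called.

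HNRNPF, which binds G-rich RNA and influences splicing and polyadenylation site choice, fell with every compound. From 93.3 FPKM in DMSO it read 123, 65.5, 48.2, 48.2 and 52.3 over the CPT doses. With T4 it read 109, 85.3, 59.7, 53.2 and 48.7. With T5 it read 99.8, 68.9, 46.8, 36.3 and 30.6. The lowest dose of each compound was thus above DMSO and the others below it, and the values fell at each step to the top dose with T4 and T5 but not with CPT. The fitted changes were −1.24 ± 0.31, −1.16 ± 0.18 and −1.79 ± 0.18 (limma adjusted p = 0.0234, 0.00396 and 0.00117), called under all 3 scalings. HNRNPA1L2, a near-identical copy of HNRNPA1 whose reads may be split between both genes, fell by 0.64 with CPT, 1.12 with T4 and 1.16 with T5, but was called under neither other scaling. At 0.711 to 2.75 FPKM it is also close to the level limit.

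HNRNPDL, the paralogue of HNRNPD, showed a drop at the lowest dose that a line does not describe. It stood at 52.5 FPKM in DMSO and at 10.6, 11.8, 15.4, 17.2 and 16.6 over the CPT doses. The T4 libraries read 27.7, 17.0, 19.1, 24.8 and 26.1, and with T5 20.7, 15.8, 18.5, 20.2 and 25.8. All 15 treated libraries were below DMSO, with the lowest values at 0.5 µM for CPT and at 2 µM for T4 and T5. None of its 3 fitted trends was called. HNRNPLL, the hnRNP L-like protein, had a similar course from 13.4 FPKM in DMSO, with its lowest value of 3.57 at 2 µM CPT, 5.20 at 2 µM T4 and 5.15 at 2 µM T5.

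**Figure D2:**
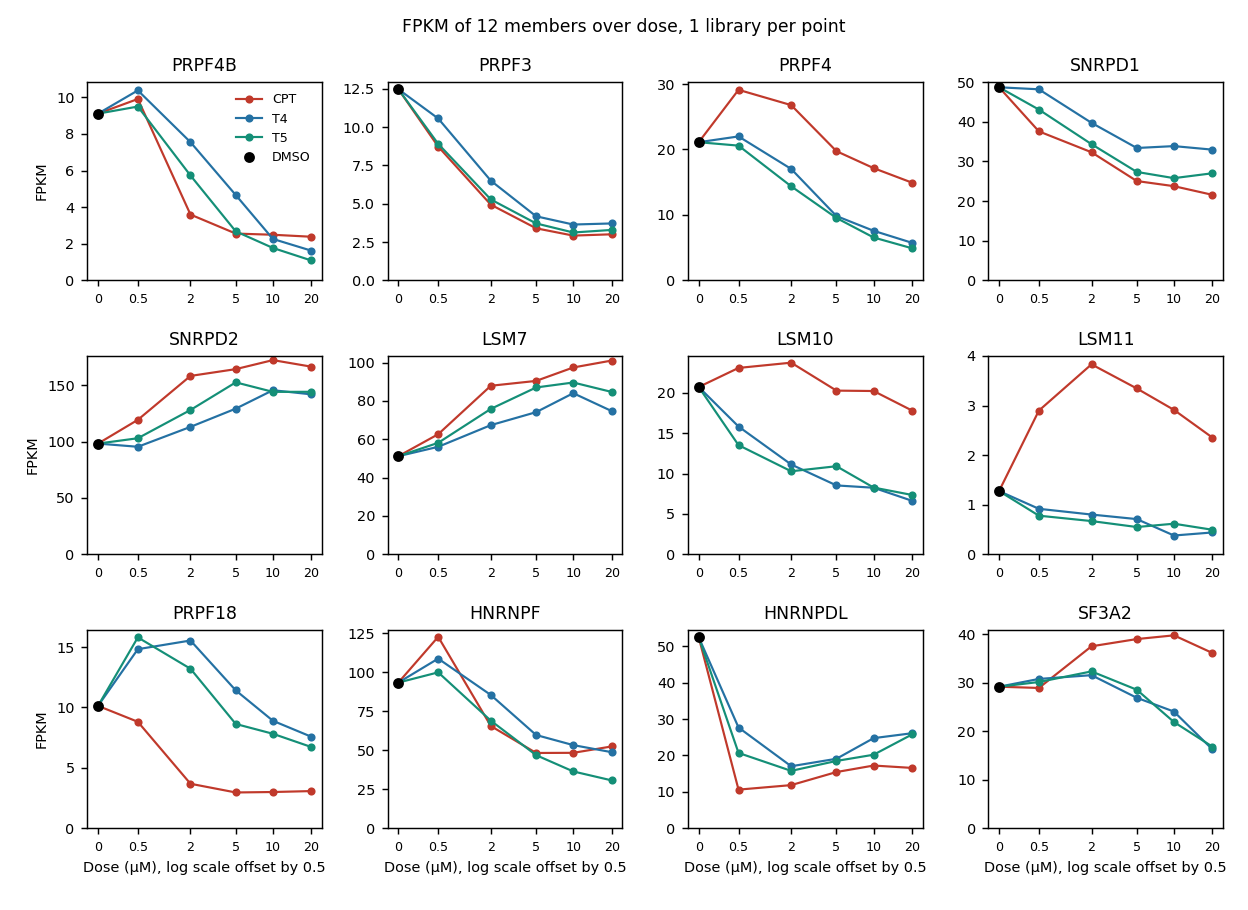
FPKM of 12 genes against dose in µM (log scale offset by 0.5, linear FPKM axis from 0), with CPT in red, T4 in blue, T5 in green and the shared DMSO library as the black point; each point is 1 library. PRPF4B, PRPF3 and SNRPD1 fall with all 3 compounds, SNRPD2 and LSM7 rise, and LSM11 stands at 2.35 to 3.83 FPKM with CPT while every T4 and T5 library is below 1.

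The Sm core proteins B, D1, D2, D3, E, F and G form the ring on U1, U2, U4 and U5 and bind it in equal number, yet their mRNAs moved apart. Of these 7 genes, 2 were higher and 1 lower with CPT, 2 and 1 with T4, and 3 and 1 with T5. Shares over all genes tested were 17.9% and 25.8% with CPT, 14.5% and 32.4% with T4, and 18.2% and 34.5% with T5. With median centring the Sm splits were 6 and 1, 6 and 0, and 6 and 0, and after quantile normalization 1 and 2, 2 and 2, and 2 and 3 (limma). SNRPD2 stood at 98.3 FPKM in DMSO and at 119, 158, 165, 173 and 167 over the CPT doses. Under T4 the values were 95.5, 113, 129, 146 and 142, and with T5 103, 128, 153, 144 and 144. Every library from 2 µM up was above DMSO. It rose by 0.78 ± 0.17, 0.66 ± 0.11 and 0.64 ± 0.14 (limma adjusted p = 0.0158, 0.00409 and 0.00963) and was called under all 3 scalings.

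SNRPD1, the direct neighbour of SNRPD2 in the ring, went the other way. From 48.7 FPKM in DMSO it read 37.6, 32.3, 25.1, 23.8 and 21.6 over the CPT doses. T4 gave 48.2, 39.8, 33.4, 33.9 and 33.0, and with T5 43.1, 34.4, 27.4, 25.8 and 27.0. All treated libraries were below DMSO, and at each dose CPT was the lowest and T4 the highest. It fell by 1.13 ± 0.13, 0.64 ± 0.12 and 0.94 ± 0.14 (limma adjusted p = 0.0105, 0.00657 and 0.00297), but with median centring the T4 value was 0.00 and the T5 value −0.27, neither called. SNRPB rose only with CPT (0.39 ± 0.10, adjusted p = 0.0225, turned to −0.13 after quantile normalization), and its T4 and T5 values of 0.27 and 0.26 were not called and also turned negative after quantile normalization. SNRPF rose with T4 (0.42 ± 0.13) and T5 (0.46 ± 0.11), without a call after quantile normalization. SNRPE rose with T5 (0.30 ± 0.10) under all 3 scalings, but was not called with any 1 dose left out (values of 0.26 to 0.37). SNRPG and SNRPD3 were called with none of the compounds. Their values lay between 0.02 and 0.29, and that of SNRPG turned negative after quantile normalization with each compound.

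The ratio of the pair within a library does not change when all its FPKM values are multiplied by the same factor. Quantile normalization is not such a factor, and the ratios are given on the deposited scale only. SNRPD2 stood at 2.02 times SNRPD1 on the FPKM scale in DMSO. It stood at 3.18, 4.90, 6.56, 7.26 and 7.72 times over the CPT doses, at 1.98, 2.85, 3.87, 4.30 and 4.31 times with T4, and at 2.39, 3.73, 5.58, 5.60 and 5.34 times with T5. The ratio thus grew at each step with CPT, levelled off from 10 µM with T4 and from 5 µM with T5, and was below DMSO in 1 library, 0.5 µM T4. This and the other ratios given below were picked after the values were seen and have no test.

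**Figure D3:**
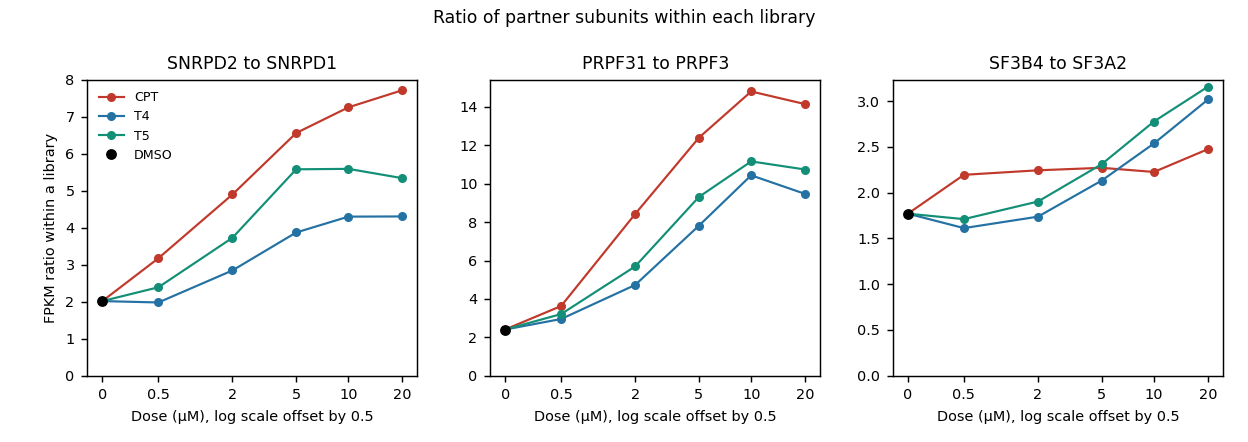
Ratio of the FPKM of 2 genes within each library against dose in µM (log scale offset by 0.5, ratio axis from 0), 1 library per point, DMSO in black. SNRPD2 to SNRPD1 goes from 2.02 to 7.72 with 20 µM CPT, PRPF31 to PRPF3 from 2.41 to 14.1, and SF3B4 to SF3A2 from 1.77 to 3.16 with 20 µM T5.

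Among the proteins specific to U1 or U2, SNRPC of U1 was the one called under all 3 compounds. It stood at 73.2 FPKM in DMSO and between 82.5 and 106 with CPT, 79.5 and 107 with T4, and 84.0 and 108 with T5. It rose by 0.53 ± 0.15, 0.44 ± 0.14 and 0.48 ± 0.14 (limma adjusted p = 0.0297, 0.0365 and 0.0255), without a call after quantile normalization. SNRPA of U1 was not called (−0.01, −0.26 and 0.03), nor was SNRPB2 of U2 (0.41, 0.22 and 0.27). SNRPA1, the U2 A′ protein, stood at 70.6 FPKM in DMSO and at 48.0, 41.9, 40.5, 45.6 and 42.5 over the CPT doses, below every T4 and T5 library (56.9 to 67.6). Its trend was called lower only with T5 (−0.24 ± 0.08, adjusted p = 0.0408), was lost when any 1 dose was left out (−0.26 to −0.22), and was 0.44 with median centring.

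The SF3A and SF3B complexes hold U2 on the branch site. Of their 9 genes, 3 were called higher and 0 lower with CPT (limma; 1 was lower at an unadjusted p under 0.05). With T4, 1 was higher and 3 lower, and with T5 2 and 3. Shares over all genes tested were 17.9% and 25.8% with CPT, 14.5% and 32.4% with T4, and 18.2% and 34.5% with T5. With median centring the SF3A and SF3B splits were 4 and 0, 5 and 0, and 4 and 0 (limma). After quantile normalization they were 1 and 1, 0 and 2, and 0 and 3 (limma). The small SF3B subunits rose: SF3B6, which contacts the branch point, by 0.53 ± 0.16, 0.46 ± 0.12 and 0.48 ± 0.12, and SF3B5 by 0.49 with CPT and 0.58 with T5 (0.41 with T4, not called). Neither was called after quantile normalization. SF3B4 stood at 51.6 FPKM in DMSO and at 63.4, 84.1, 88.5, 88.4 and 89.4 over the CPT doses, above every T4 and T5 library (49.0 to 65.9) from 2 µM up. It rose by 0.78 ± 0.17 with CPT (adjusted p = 0.0166), while the T4 and T5 values were 0.09 ± 0.14 and 0.16 ± 0.16.

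The large SF3B subunits and the SF3A genes were called higher with none of the compounds on the deposited scale. SF3B1, the scaffold of the complex, stood at 52.0 FPKM in DMSO, between 32.5 and 42.1 with CPT, and fell by 0.40 ± 0.10 with T4 and 0.53 ± 0.10 with T5 (limma adjusted p = 0.0148 and 0.00629), but its values with median centring were 0.25 and 0.14. SF3A1 fell by 0.67 ± 0.16 with T4 and 0.58 ± 0.14 with T5, turned to 0.09 with T5 under median centring, and was not called with CPT (−0.05 ± 0.11). SF3B2, SF3B3 and SF3A3 were called with no compound. SF3A2 stood at 29.2 FPKM in DMSO and at 28.9, 37.5, 39.0, 39.8 and 36.1 over the CPT doses. With T4 it read 30.8, 31.5, 26.9, 24.0 and 16.2, and with T5 30.1, 32.3, 28.5, 21.9 and 16.8. It was thus above DMSO with CPT from 2 µM up and below it with T4 and T5 from 5 µM up. Its fitted change was 0.42 ± 0.16 with CPT (not called) and −0.72 ± 0.23 with both T4 and T5 (adjusted p = 0.0404 each), and without the 20 µM library these were −0.34 and −0.40 and not called. SF3B4 stood at 1.77 times SF3A2 in DMSO, and at the top dose at 2.47 times with CPT, 3.02 with T4 and 3.16 with T5.

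The PRPF genes held the largest falls of the set. Of 13, 2 were higher and 6 lower with CPT, 2 and 5 with T4, and 3 and 7 with T5, with median fitted changes of −0.69, −0.59 and −0.84. Shares over all genes tested were 17.9% and 25.8% with CPT, 14.5% and 32.4% with T4, and 18.2% and 34.5% with T5. With median centring the PRPF splits were 4 and 5, 4 and 4, and 4 and 5, and the T4 median was 0.06. After quantile normalization the splits were 2 and 5, 1 and 5, and 1 and 5. PRPF4B, a kinase that phosphorylates proteins of the tri-snRNP, stood at 9.11 FPKM in DMSO and at 9.91, 3.59, 2.56, 2.49 and 2.38 over the CPT doses. The T4 libraries read 10.4, 7.55, 4.66, 2.26 and 1.62, and with T5 9.496, 5.73, 2.68, 1.77 and 1.09. The 0.5 µM libraries were all slightly above DMSO and the rest below it, with a floor from 5 µM for CPT and a steady fall for T4 and T5. It fell by 1.90 ± 0.36, 2.19 ± 0.33 and 2.54 ± 0.27 on the log2 scale (limma adjusted p = 0.0131, 0.00341 and 0.00128).

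PRPF3, PRPF4 and PRPF31 hold U4 and U6 together, and they diverged. PRPF3 stood at 12.5 FPKM in DMSO and at 8.73, 4.94, 3.398, 2.92 and 3.01 over the CPT doses. Under T4 the values were 10.6, 6.504, 4.18, 3.64 and 3.71, and with T5 8.91, 5.28, 3.72, 3.12 and 3.29. It was lower at every dose of every compound and flat above 10 µM, and its fitted changes were −1.87 ± 0.27, −1.72 ± 0.24 and −1.78 ± 0.26, called each time (limma adjusted p = 0.0105, 0.0026 and 0.00268). PRPF4, its binding partner, stood at 21.1 FPKM in DMSO. With CPT it read 29.1, 26.8, 19.7, 17.2 and 14.9, with T4 22.0, 17.0, 9.83, 7.57 and 5.74, and with T5 20.6, 14.4, 9.53, 6.55 and 4.90. The lower CPT doses were above DMSO, and every CPT library was above the T4 and T5 libraries of its dose. PRPF4 fell by 1.90 ± 0.23 with T4 and 2.05 ± 0.19 with T5 (adjusted p = 0.00178 and 0.00109), and its CPT value of −0.69 ± 0.27 was not called (adjusted p = 0.0766). PRPF31 stood at 30.0 FPKM in DMSO and between 31.7 and 43.3 with CPT, and rose by 0.54 ± 0.14 with CPT and 0.31 ± 0.10 with T5. The T5 call was lost when any 1 dose was left out (0.27 to 0.33). The PRPF31 to PRPF3 ratio of 2.41 in DMSO read 3.63, 8.43, 12.4, 14.8 and 14.1 with CPT, 2.95, 4.73, 7.82, 10.4 and 9.47 with T4, and 3.21, 5.70, 9.31, 11.2 and 10.7 with T5.

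PRPF8, which lies at the catalytic centre, rose by 0.41 ± 0.11 with T4 and 0.37 ± 0.11 with T5 from 32.5 FPKM in DMSO, without a call after quantile normalization. PRPF6, the bridge between U5 and U4/U6, fell by 0.55 ± 0.14 with T5 (adjusted p = 0.0182), a value that was 0.13 with median centring. PRPF19, a ubiquitin ligase of the activated spliceosome and the most abundant PRPF gene at 80.2 FPKM in DMSO, rose by 0.47 ± 0.13, 0.30 ± 0.10 and 0.33 ± 0.10, with values of 0.05, −0.04 and −0.07 after quantile normalization.

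Of the remaining PRPF genes, PRPF38B stood at 12.9 FPKM in DMSO and ended at 6.62, 3.38 and 2.60 at 20 µM CPT, T4 and T5. It fell by 0.93 ± 0.26, 1.79 ± 0.19 and 2.06 ± 0.23 (limma adjusted p = 0.0326, 0.00135 and 0.00145), and the CPT call did not hold under either other scaling. PRPF38A, which is needed for activation of the assembled spliceosome, had fitted changes of −1.203 ± 0.20, −1.13 ± 0.18 and −1.25 ± 0.16, all called lower but without a T4 call under median centring. PRPF18, a factor of the second splicing step, stood at 10.1 FPKM in DMSO and at 8.80, 3.67, 2.95, 2.99 and 3.07 over the CPT doses. T4 gave 14.8, 15.5, 11.4, 8.89 and 7.57, and with T5 15.8, 13.2, 8.63, 7.81 and 6.72. The T4 and T5 libraries at 0.5 and 2 µM were above DMSO while every CPT library was below it. It fell by 1.65 ± 0.35 with CPT (adjusted p = 0.0156), and the T4 and T5 values of −0.59 and −0.84 were not called. PRPF39, a U1-associated protein, fell by 1.27 ± 0.39 with T5, but without the 20 µM library the value was −0.95 (adjusted p = 0.152).

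The proteins LSM2 to LSM8 form the ring of U6, and LSM1 replaces LSM8 in the cytoplasmic ring that acts in mRNA decay. Of the 11 LSM genes described here, 2 were higher and 1 lower with CPT, 4 and 4 with T4, and 3 and 5 with T5. Shares over all genes tested were 17.9% and 25.8% with CPT, 14.5% and 32.4% with T4, and 18.2% and 34.5% with T5. With median centring the LSM splits were 5 and 1, 4 and 1, and 4 and 1. After quantile normalization they were 2 and 1, 3 and 1, and 3 and 1. LSM7 stood at 51.2 FPKM in DMSO and at 62.7, 88.0, 90.5, 97.5 and 101 over the CPT doses. With T4 it read 56.1, 67.4, 74.2, 84.1 and 74.7, and with T5 58.2, 75.9, 87.1, 89.7 and 84.7. All 15 treated libraries were above DMSO, with CPT highest at each dose. It rose by 0.97 ± 0.16, 0.65 ± 0.13 and 0.81 ± 0.15 (limma adjusted p = 0.0108, 0.00834 and 0.0061). LSM4 rose by 0.93 ± 0.15, 0.41 ± 0.13 and 0.67 ± 0.15, and LSM5 by 0.50 ± 0.14 with T4 and 0.48 ± 0.11 with T5; all of these were called under all 3 scalings. LSM3 rose by 0.47 with T4 (limma adjusted p = 0.0377), without a call after quantile normalization, and was not called with CPT or T5. LSM6, of the same ring, was called with none of the compounds (−0.44, −0.10 and −0.13), and LSM8, which was below the level limit, read 0.9502 FPKM in DMSO and 0.734, 0.202 and 0.114 at 20 µM CPT, T4 and T5. LSM1 fell by 0.39 ± 0.11 with T4 and 0.49 ± 0.17 with T5, but was called under neither other scaling, where median centring gave 0.25 and 0.18.

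LSM10 and LSM11, which stand in the U7 ring where SNRPD1 and SNRPD2 stand in the others, were read next. LSM10 stood at 20.7 FPKM in DMSO and at 23.1, 23.8, 20.3, 20.2 and 17.8 over the CPT doses. The T4 libraries read 15.8, 11.1, 8.53, 8.25 and 6.63, and with T5 13.5, 10.3, 10.9, 8.27 and 7.35. Every T4 and T5 library was below DMSO and below every CPT library. It fell by 1.49 ± 0.17 with T4 and 1.23 ± 0.20 with T5 (limma adjusted p = 0.00156 and 0.00396) under all 3 scalings, and was not called with CPT (−0.25 ± 0.16). LSM11 stood at 1.27 FPKM in DMSO and at 2.90, 3.83, 3.34, 2.91 and 2.35 with CPT. Under T4 the values were 0.916, 0.801, 0.709, 0.378 and 0.439, and with T5 0.778, 0.669, 0.549, 0.616 and 0.494. CPT was above DMSO in 5 of 5 libraries and T4 and T5 below it in 10 of 10. Its mean passed 1 FPKM only through the CPT libraries, so a difference between CPT and the others was built into its selection. The falls of 0.67 with T4 and 0.50 with T5 were called, but with median centring the values were −0.03 and 0.17.

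LSM12 fell by 1.17 ± 0.25, 1.10 ± 0.30 and 1.17 ± 0.25 from 7.74 FPKM in DMSO, but with T4 and T5 under neither other scaling. LSM14B, a protein of cytoplasmic mRNA granules, stood at 17.4 FPKM in DMSO, between 18.7 and 19.96 with CPT, between 9.96 and 15.2 with T4 and between 8.20 and 13.1 with T5. It fell by 0.92 ± 0.24 with T5 (adjusted p = 0.0198), also not called under the other scalings. Its paralogue LSM14A went from 31.5 FPKM in DMSO to between 12.8 and 17.7 with CPT, and its trend was called with no compound.

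**Figure D4:**
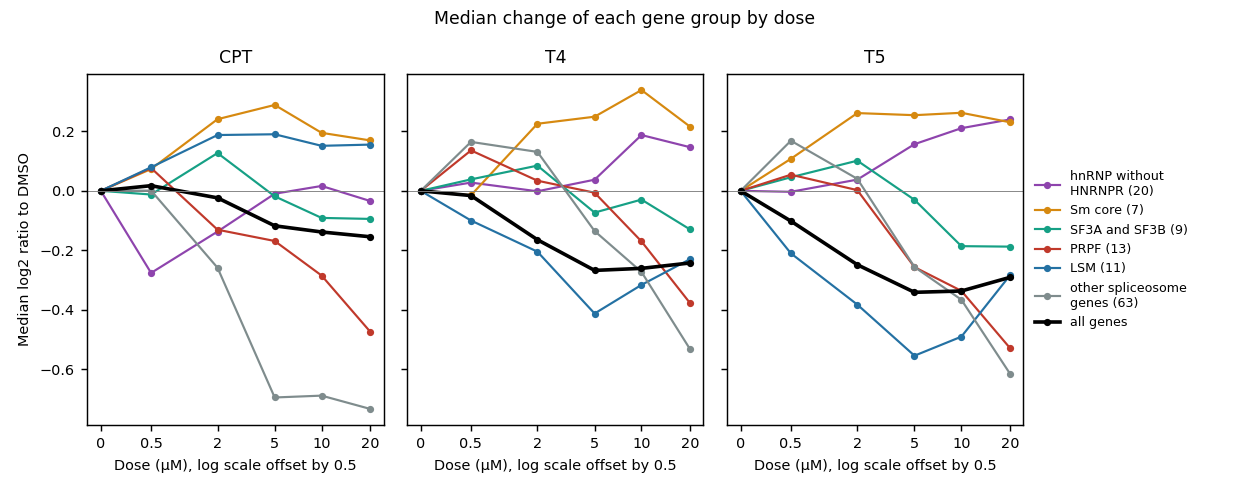
Median log2 ratio to DMSO of each gene family against dose in µM (log scale offset by 0.5), with the number of genes in brackets, the other spliceosome genes in grey and all 10600 genes in black; 1 library per point, hnRNP without HNRNPR. The Sm core stays above 0 at all but the lowest T4 dose, while the PRPF genes end at −0.47 with 20 µM CPT, −0.38 with T4 and −0.53 with T5.

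Other genes of splicing and snRNP assembly were read from a list of 65, of which 63 reached the level. With CPT, 6 were higher and 29 lower, beside 17.9% and 25.8% of all genes tested. With T4 the split was 2 and 26, beside 14.5% and 32.4%, and with T5 4 and 34, beside 18.2% and 34.5%. The median fitted changes of the list were −0.56, −0.60 and −0.74, beside 0.14, 0.02 and 0.11 for the 66 genes described here and −0.14, −0.27 and −0.29 for all genes. With median centring the list's split was 14 and 23, 16 and 17, and 15 and 20, and its T4 median was 0.04. Of the SMN complex, which loads the Sm ring onto snRNA, 7 genes of the list were tested, a grouping made after the values were seen. With CPT 5 of them were called lower and GEMIN4 (0.51) and STRAP (0.04) were not called, and with T4 and T5 6 were lower and STRAP (0.15 and 0.20) was not called. Of all genes tested, 25.8% were lower with CPT, 32.4% with T4 and 34.5% with T5. The SMN counts are given on the deposited scale only. GEMIN2, which holds the Sm proteins before loading, stood at 13.2 FPKM in DMSO and at 1.98, 1.33 and 1.36 at 20 µM CPT, T4 and T5, and fell by 2.57, 2.83 and 2.87. DDX20, the helicase of the complex, changed by −3.30 with T4 and −3.41 with T5, and GEMIN6 by −3.33 and −3.09, all called lower. With CPT the deepest falls of the list were RBM39 (−2.69 ± 0.40), a splicing factor related to U2AF, SNRNP40 of U5 (−2.58 ± 0.26) and GEMIN2. XAB2, of the Prp19-associated group, went up with CPT, from 12.9 FPKM in DMSO to 30.0 at 20 µM, and rose by 1.06 ± 0.24, followed by SNRNP70 of U1 (0.64) and U2AF2 (0.61). SNRNP200, the helicase that unwinds U4 from U6, rose by 0.52 with T4 and 0.45 with T5. PPIH rose by 0.41 with T4, and with T5 TXNL4A rose by 0.49 and SNRNP25 by 0.45, all called higher.

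The compounds were then compared with each other at matched doses, as the mean difference of log2(FPKM + 1) over the 5 doses with dose as a block and without the DMSO library. There were 3 such comparisons, each compound enters 2 of them, and adjusted p-values run over the 10600 genes of each. T4 was above CPT for 19 of the 66 genes and below it for 14, beside 28.3% and 36.9% of all genes. T5 was above CPT for 21 and below it for 14, beside 25.0% and 37.6%. T5 was above T4 for 6 and below it for 11, beside 6.05% and 26.5%. The median difference of the 66 genes was 0.03, 0.02 and −0.01, beside −0.09, −0.10 and −0.06 for all genes. The splits with median centring were 25 and 10, 38 and 8, and 23 and 5, and those after quantile normalization 26 and 12, 25 and 14, and 2 and 6. HNRNPR, whose fits are not read, is in both T4 counts above CPT, which are 24 and 25 without it. All 19 and 21 genes above CPT were also called under both other scalings, and of those below CPT 10 of 14 with T4 and 8 of 14 with T5.

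LSM10 differed from CPT by −1.04 ± 0.12 with T4 and −1.01 ± 0.09 with T5 (limma adjusted p = 0.000748 and 0.000288), in 5 of 5 doses each. LSM11 passed the 1 FPKM limit only through the CPT libraries, so its differences of −1.30 ± 0.09 and −1.32 ± 0.08 are a description and support nothing. Also below CPT were PRPF4 (−0.85 ± 0.13 and −1.002 ± 0.14), then LSM14B (−0.64 ± 0.10 and −0.96 ± 0.11) and SF3B4 (−0.59 ± 0.07 and −0.49 ± 0.07). PRPF38B was lower with T5 (−0.64 ± 0.16), and its T4 value of −0.35 was not called. Above CPT stood PRPF18 (1.31 ± 0.17 and 1.15 ± 0.13), with limma adjusted p of 0.00101 and 0.000562. HNRNPUL2, a paralogue of HNRNPU, stood at 9.77 FPKM in DMSO, at 6.72 to 9.22 with CPT and at 12.6 to 14.8 with T4 and T5. It differed from CPT by 0.73 ± 0.10 with T4 and 0.67 ± 0.10 with T5. HNRNPU, a scaffold protein that binds chromatin-associated RNA, stood at 58.3 to 68.1 FPKM with CPT and at 76.9 to 101 with T4 and T5, a difference of 0.46 ± 0.07 and 0.57 ± 0.06. SNRPA1 differed by 0.51 ± 0.05 and 0.53 ± 0.05, LSM14A by 0.57 and 0.41, and HNRNPDL by 0.64 and 0.47. By family, 7 of 21 hnRNP genes were above CPT and 0 below with T4 (limma; 0 were below at an unadjusted p under 0.05), and 10 and 1 with T5. The shares of all genes were 28.3% above and 36.9% below with T4, and 25.0% and 37.6% with T5. Of the 11 LSM genes 2 were above and 6 below in both comparisons. LSM11 is among these 6 and among the 14 genes below CPT in each comparison. Its part in these counts was built into its selection.

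**Figure D5:**
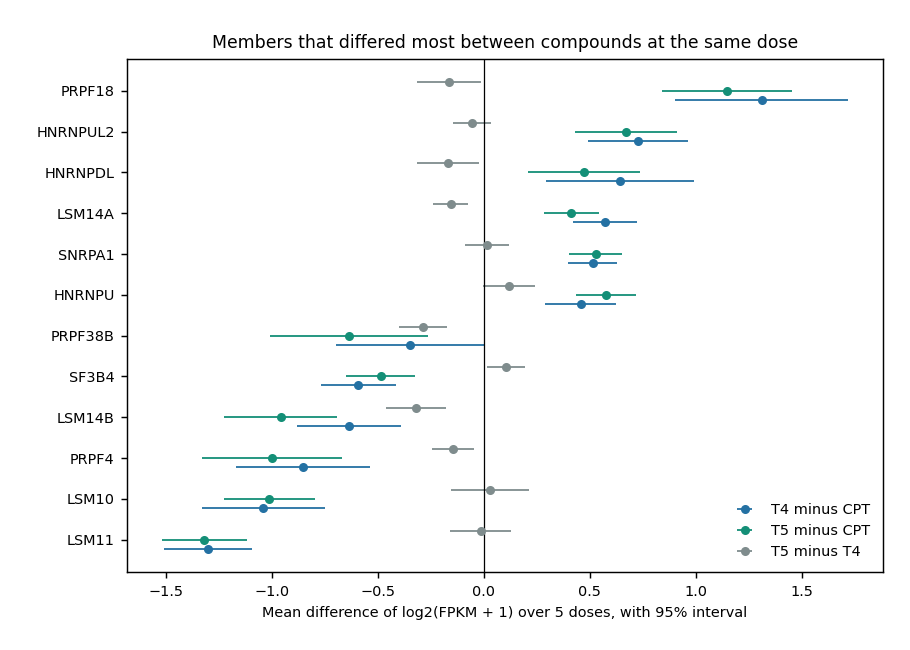
Mean difference of log2(FPKM + 1) between compounds at the same dose over 5 doses, with its 95% interval, for 12 genes named for the comparisons with CPT. T4 minus CPT (blue) and T5 minus CPT (green) run from −1.32 for LSM11, which passed the level limit only through CPT, to 1.31 for PRPF18, while T5 minus T4 (grey) stays between −0.32 and 0.12.

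T5 and T4 lay much closer to each other. The largest differences were HNRNPF (−0.39 ± 0.07), PRPF4B (−0.33 ± 0.07), LSM14B (−0.32 ± 0.06), PRPF38B (−0.29 ± 0.05) and SNRPD1 (−0.26 ± 0.04), lower with T5 in 5 of 5 doses each (limma adjusted p = 0.0103, 0.0166, 0.00943, 0.00729 and 0.00605). PRPF4B was not called without the 2 µM libraries (adjusted p = 0.0568) and under neither other scaling. Higher with T5 were HNRNPA0 (0.19), SNRPA (0.18), LSM7 (0.14), HNRNPK (0.13) and HNRNPH3 (0.10), and of these LSM7 and SNRPA were called under all 3 scalings. Each of these 5 lost its call in at least 3 of the 5 fits with 1 dose left out. Of the PRPF genes 6 of 13 were lower and 0 higher with T5 (limma, with 0 higher at an unadjusted p under 0.05). This stands beside 26.5% lower and 6.05% higher of all genes. PRPF38B alone of these 6 was called under all 3 scalings. Without the 20 µM libraries 0 genes were called higher (limma; 7 at an unadjusted p under 0.05), without 2 or 5 µM 1 each and without 10 µM 3. Those called lower numbered 6 without 2, 5 or 10 µM, and without the dose block there were 0 calls in either direction, with 0 at an unadjusted p under 0.05. For the U7 pair no difference was called, with 95% intervals of −0.16 to 0.13 for LSM11 and −0.15 to 0.21 for LSM10, nor for PRPF18 (−0.31 to −0.01).

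Some courses over dose were not monotone, and the following counts were defined after the values were seen and have no test. A dip and return was taken as at least 0.5 log2 below DMSO at 0.5, 2 or 5 µM and at least 0.5 higher again at 20 µM. It was found in 5 of 65 genes with CPT, beside 5.00% of all genes, in 5 with T4, beside 7.09%, and in 5 with T5, beside 7.18%, so these shares are near the background. The CPT genes were all hnRNP genes: HNRNPL, HNRNPD, HNRNPA3, HNRNPDL and HNRNPLL. HNRNPL, which binds CA repeats, read 124.6 FPKM in DMSO, 74.5 at 0.5 µM CPT and 139 at 20 µM, and HNRNPD (AUF1, an mRNA decay factor) read 128, 67.6 and 110. With T4 and T5 they were HNRNPDL, LSM14A, LSM6, HNRNPLL and PRPF40B. LSM6 read 15.2 FPKM in DMSO, 6.44 at 5 µM T5 and 13.9 at 20 µM. The mirror course, a rise and drop of the same sizes, was found in 2 genes with CPT (PRPF39 and LSM11), beside 6.21%, in 3 with T4 (among them PRPF39 and PRPF18), beside 6.18%, and in 2 with T5 (PRPF39 and PRPF18), beside 6.18%. PRPF39 read 12.2 FPKM in DMSO and 20.9 at 0.5 µM CPT, 19.6 at 2 µM T4 and 18.8 at 0.5 µM T5, and 10.5, 8.31 and 5.66 at the top dose.

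Gene length moved with these differences, and its part in them was not tested. The spans came from GENCODE 29 by symbol, which matched all members and 94.7% of the genes tested. Across the 65 genes without HNRNPR, Spearman's rho between span and T4 minus CPT was 0.50, against 0.59 across 10036 tested genes; for T5 minus CPT it was 0.37 against 0.51, for the CPT trend −0.36 against −0.42, and for the T4 and T5 trends −0.16 and −0.20 against −0.12 and −0.20. Genes share their libraries, so these are descriptions without a test. Members above CPT with T4 had a median span of 33.9 kb and those below it 12.5 kb, against 90.5 kb and 14.2 kb over all genes. The promoters of the 57 genes had a median GC content of 61.7%, against 65.7% for the tested genes.

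HNRNPR, a paralogue of the SYNCRIP protein, was the one member listed at 0 in some libraries. It was listed at 0 with DMSO, with 2 and 20 µM CPT and with 0.5 and 20 µM T5, and between 60.4 and 116 FPKM in the other 11 libraries. Zeros at such neighbours in dose can be a failed estimate, so its fits are not read and it was left out of naming after its values were seen. LSMEM2 ranged from 0.58 to 1.54 FPKM and was called in no trend.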

How the data were processed

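The deposited matrix holds FPKM values per gene for 16 U2OS libraries, which the authors made from reads aligned with GSNAP and quantified with Cufflinks on hg19 (GRCh37), per the submitters' processing notes; no source used here gives their versions or how multi-mapping reads were handled. After removal of 2 inner header lines, 1 incomplete line and 220 identical repeats, 25270 genes remained, and 10600 with a mean of at least 1 FPKM were tested. FPKM is relative within a library, so values depend on the other genes, and no read numbers were used; depth is known only relative to DMSO.

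Changes were computed as log2(FPKM + 1), a scale that understates changes of low genes. limma 3.58.1 in R 4.3.3, with a mean-variance trend and Benjamini-Hochberg adjustment, fitted log2(1 + dose / 0.5 µM) over 6 libraries per compound, or the mean difference over 10 libraries with dose as a block; tests are 2-sided. With 1 library per dose, p-values measure scatter around these fits, not between cultures. Alternatives were median centring, quantile normalization, a pseudocount of 0.1, no filter or a mean of at least 5 FPKM, each dose left out, a linear dose scale, 1 fit of all 16 libraries, treated libraries only and no dose block.

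The members and gene lists were chosen with earlier results of these data known. Named genes are the 8 largest called changes in each direction per trend, the 5 largest per matched comparison, the 5 largest drops from a low-dose peak, all Sm, U1 and U2, SF3 and tri-snRNP genes, those at the level limit, 3 per direction of the other list, and those listed at 0; a few others, such as LSM1, LSM6 and PRPF38B with CPT, complete a family and were added after their values were seen. HNRNPR was left out of naming after its zeros were seen. The values of 1 member are not reported here; it stays in the counts. Tables and plots used Python 3.11.15 and matplotlib 3.10.9.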

Additional observations from a re-analysis of the deposited data

Results flagged for a closer look

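The slopes over dose were fitted on the treated libraries alone with an intercept for each compound. They differed between compounds for 3 of the 65 genes without HNRNPR by the limma test of the difference itself. The share over all genes tested is not given here, so this number is not read as a trait of the set. SF3A2 had a slope lower by 1.41 ± 0.35 log2 units (over 0 to 20 µM) with T4 than with CPT (difference −1.41, adjusted p = 0.0455) and by the same −1.41 ± 0.36 with T5 than with CPT (adjusted p = 0.0456). PRPF4 differed by −1.08 ± 0.24 between T4 and CPT (adjusted p = 0.0327) and by −1.15 ± 0.19 between T5 and CPT (adjusted p = 0.00962). SF3A1 differed by −0.93 ± 0.19 between T4 and CPT (adjusted p = 0.0247). With median centring none of the 5 differences was called, the adjusted p being 0.0512 for PRPF4 with T5 and between 0.129 and 0.169 for the others. Both sets of differences use the same CPT libraries.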

How the results depend on the processing

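The number of genes called moved with the scaling of the libraries, which changed the sign of several small changes; the falls of PRPF4B and PRPF3 and the rises of SNRPD2 and LSM7 were called under the deposited scale, median centring and quantile normalization with every compound. Counts are given as higher or lower. With median centring, 31 were higher with CPT, 38 higher and 6 lower with T4, 38 and 7 with T5, 23 and 5 for T5 minus T4, and 38 and 8 for T5 minus CPT. After quantile normalization, 6 were higher with CPT, 8 with T4 and 7 with T5, and T5 minus T4 gave 2 higher and 6 lower. On a linear dose scale CPT gave 0 higher and 0 lower (limma; 1 and 4 at an unadjusted p under 0.05), T4 0 higher (7 unadjusted) and 6 lower, and T5 0 higher (7 unadjusted) and 5 lower. A single fit of all 16 libraries gave 24 higher and 20 lower with CPT. Without a filter on low values, 9 were higher with CPT and 2 for T5 minus T4. Without the dose block, T5 minus T4 gave 0 and 0, T4 minus CPT 7 lower, and T5 minus CPT 11 higher and 7 lower. The cause of these shifts was not tested. With 1 dose left out, CPT gave 0 (without 10 µM) to 16 higher and 0 to 11 lower, T4 2 to 15 higher and 10 to 15 lower, T5 5 to 17 higher (16 without HNRNPR) and 11 to 17 lower, and T5 minus T4 0 to 4 higher and 6 to 15 lower. T4 minus CPT gave 16 to 18 higher and 12 to 14 lower, and T5 minus CPT 16 to 20 and 12 to 15.

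The list below covers only genes and trends picked by the naming rule. Called changes outside it turned as well, such as LSM1 and PRPF19 with T4 and T5 and LSM11 with T5, given above. Signs turned for these fitted changes, listed only where the gene was called on the deposited scale or under the alternative. After quantile normalization they were −0.0215 for HNRNPK, −0.0139 for HNRNPA1 and −0.0913 for HNRNPA2B1 with T5, −0.13, −0.175 and −0.26 for SNRPB with CPT, T4 and T5, and −0.37 and −0.24 for SNRPG with CPT and T5. With median centring they were 0.0049 for SNRPD1 and 0.47 for SF3A3 with T4, 0.39 and 0.44 for SNRPA1, 0.63 and 0.60 for SF3B2, and 0.25 and 0.14 for SF3B1 with T4 and T5, and 0.0925 for SF3A1 and 0.13 for PRPF6 with T5. In treated libraries only, SNRPD3 with T5 was −0.30. Of 1975 alternative values for named genes, 1554 were counted as unchanged, 322 lost the call and 55 gained it. Unchanged values kept direction and side of the threshold, or turned sign by less than their SE without a call on either side. The sign turned for 19 values with a call on at least 1 side, and by at least the SE for 25 without a call. The counts of dips and of rises, with alternatives chosen after seeing the data, stayed between 3 and 7 and between 2 and 5.

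There are no replicate numbers to pair, and the matched comparisons use the dose as a block. The absolute number of reads is unknown, so low members such as LSM11 and LSMEM2 have no counting interval.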
